A study of Mus musculus with 9 samples.

Results

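Retinal progenitors made in culture from mouse embryonic stem cells (ESC-RPCs) and treated with DKK1 were compared with primary retinal progenitor cells (primary RPCs) taken from the newborn mouse retina, to see which transcripts differed from newborn retina after DKK1. The comparison was chosen by sample labels alone and used 6 of the 9 arrays of the study, 3 per group. The third group, untreated ESC-RPCs (3 arrays), is given beside it. Labelled cRNA was hybridised to Affymetrix 3-prime expression arrays, and each value is a MAS5 signal, a linear intensity for 1 probe set.

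Both ESC-RPC groups came from 1 embryonic stem cell line, 46C, which was made by gene targeting in E14Tg2a.IV cells. Embryoid bodies were grown for 3 days without serum, with SB431542, an inhibitor of ALK4, ALK5 and ALK7 that blocks Nodal signalling. They were then plated on Matrigel in CDM free of RA, and Sox1-positive cells (35.8%) were sorted on day 7. The sorted cells of both groups grew in N2 medium with 10 µM DAPT, which blocks Notch processing, and 20 ng/ml bFGF. The treated group also received 1 ng/ml DKK1, a secreted Wnt antagonist, for 1 day. Primary RPCs were obtained by dissociating the neural retina of C57 pups at postnatal day 1, were listed as untreated, and are called both primary and primary cultured in the labels. The series used them as a negative control in a search for pathways of proliferation and oncogenesis. Strain, culture, sorting, age and the DAPT and bFGF exposure all differ between the groups compared, so their parts in a difference cannot be told apart. Each group is described as 3 independent biological repeats, and the labels do not give the number of animals or cultures behind an array.

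The vertebrate retina arises from the eye field of the forebrain, whose progenitors share a small set of homeobox transcription factors such as Rax, Pax6, Six3, Six6 and Lhx2. These progenitors make neurons in a fixed order, ganglion, horizontal and cone cells first and rods, bipolar cells and Müller glia later, so that the newborn mouse retina holds dividing late progenitors beside young neurons and many photoreceptor precursors. Notch signalling keeps progenitors dividing, and Wnt signalling through beta-catenin favours posterior and peripheral fates over the neural retina.

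In all, 13331 genes were tested with limma, and the groups differed at a Benjamini-Hochberg adjusted p below 0.05 for 7036 of them (52.8%), with 3464 higher (26%) and 3572 lower (26.8%) in DKK1-treated ESC-RPCs. A difference shown to exceed 2-fold was found for 1249 genes (9.37%), 757 higher (5.68%) and 492 lower (3.69%). The 3 arrays of each group did not overlap for 7887 genes (59.2%). The median log2 difference over all genes was -0.01. These shares are the background for every count below. A gene is called rising or falling here only if it passed the first of these tests, and folds and log2 differences are DKK1-treated against primary, with ± as the standard error of the fit. A group with all 3 arrays below their own 40th percentile (44.5 to 52.8) was taken as dim. For such a gene the fold was computed against those percentiles and is a lower bound, printed as "at least". Where only 1 or 2 arrays of a group reached their percentile, the fitted difference is printed and rests in part on values near background. Of the primary arrays, 1 of 3 did so for Aldh1l1, Col3a1, Emcn, Frzb, Pantr1, Sall3, Tal1 and Wls, and 2 of 3 for Dbx1, Dcn, Foxa1, Lhx1, Nr0b1, Olig1 and Zic4. Of the treated arrays, 1 of 3 did so for Fgfr4, Ptf1a and Tulp1, and 2 of 3 for Gnat2 and Six6. Treated cells alone were dim for 339 genes (2.54%) and primary cells alone for 604 (4.53%). Tested genes had a probe set above the 40th percentile of its array on 3 or more of the 9 arrays. A gene dim in 1 group therefore passed this filter only through other groups, which in part fixes its direction.

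Each array had been scaled to a trimmed mean of 500. The ratio of 3-prime to 5-prime signal was 1.33 to 1.37 in treated and 1.22 to 1.26 in primary arrays for Actb, and 0.759 to 0.792 and 0.725 to 0.757 for Gapdh. Neither ratio overlapped between the groups, and the part of this in the results was not tested. Across genes, which are not independent replicates, treated arrays correlated at 0.977 to 0.983 with each other and at 0.825 to 0.831 with primary arrays. Primary replicate 2 stood slightly apart, at 0.967 and 0.964 with the other two primary arrays, which correlated at 0.977. Its median signal was 96.5 against 83.5 and 84.3. The precision is limited by the number of arrays, with a median standard error of 0.15 for a log2 difference. Because RNA came from bulk cells, fewer cells of a type and less RNA per cell cannot be told apart in any result below.

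**Figure D1:**
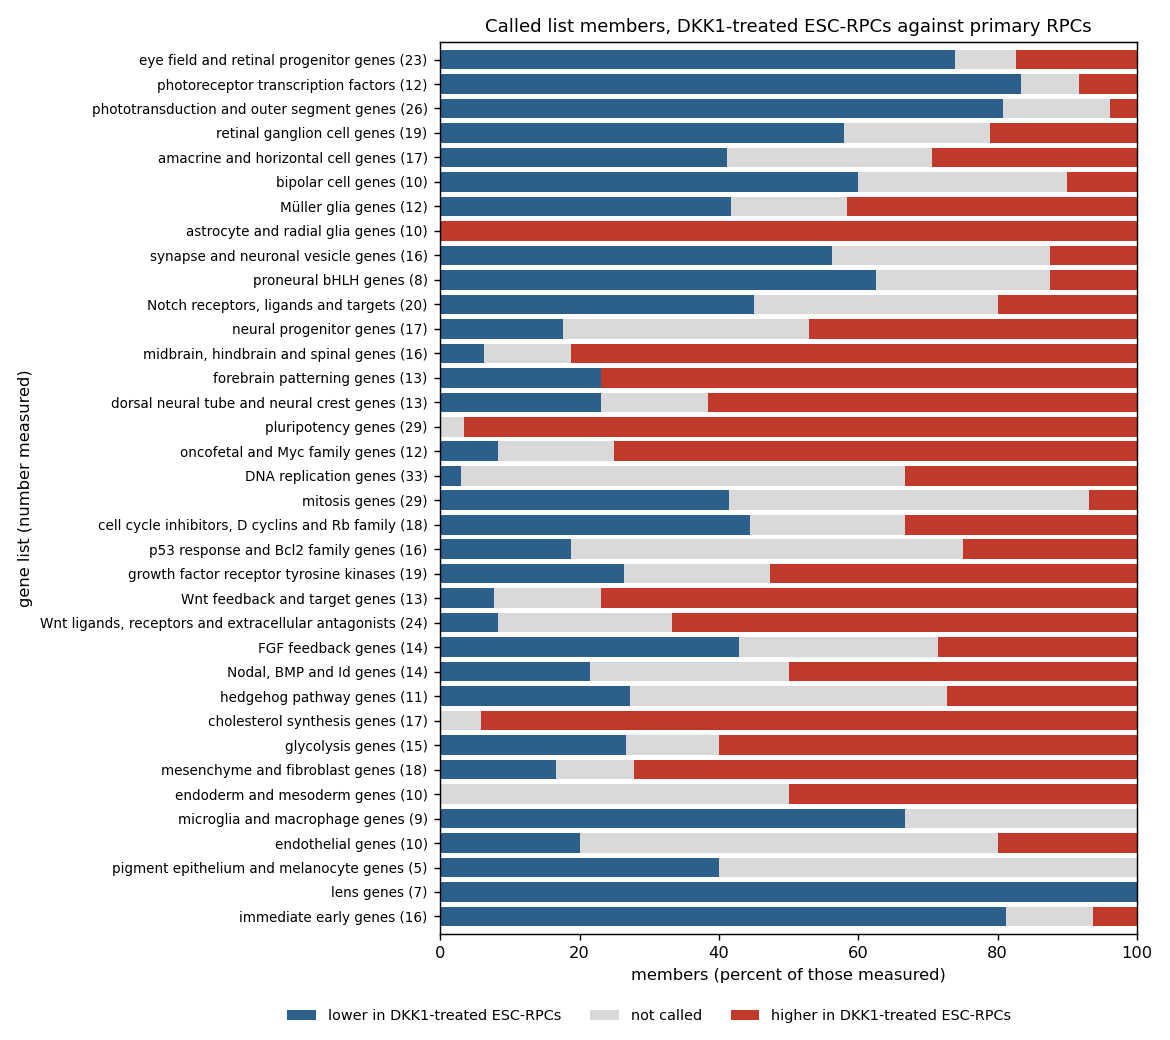
For each gene list with at least 5 measured members, the bar gives the percent of measured members that were lower (blue), not called (grey) or higher (red) in DKK1-treated ESC-RPCs than in primary RPCs by limma, with the number measured in parentheses. Of all 13331 genes tested, 26.8% were lower and 26% higher; photoreceptor, lens and immediate early lists lie largely on the blue side and pluripotency, astrocyte, forebrain and cholesterol synthesis lists on the red side.

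Eye field and retinal progenitor genes were mostly lower in DKK1-treated cells than in newborn retina. Of 23 measured, 17 fell, 4 rose and 2 did not pass the test. The list median was -2.25, or -2.19 with dim genes at their bounds, and 14 members were lower by more than 2-fold. For untreated minus primary cells the list median was similar, at -2.29. Rax, a homeobox factor required to form the eye, measured 30.9, 1.66 and 4.88 on the treated arrays and 3185, 3635 and 4996 on the primary arrays. All 3 treated values lay below their percentiles, and Rax was at least 82.3-fold lower (limma adjusted p = 1.87e-05). Six6, its partner in the eye field, measured 34.1, 66.2 and 89.3 against 4282, 4007 and 4869 (log2 difference -6.22 ± 0.33, limma adjusted p = 1.62e-07). The treated Six6 values straddled the percentile, while every primary array was bright.

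Other eye field factors were present in the treated cells at reduced signals. Pax6, needed for the multipotency of retinal progenitors, measured 1187, 1087 and 1491 against 8847, 10898 and 10359 (log2 difference -3.01 ± 0.14). Six3, which keeps the anterior neural plate free of Wnt signalling, measured 1449, 2212 and 940.3 against 6395, 6922 and 7371 (-2.25 ± 0.31). Lhx2, a LIM homeobox factor of the optic vesicle, measured 1096, 1209 and 1037 against 3915, 4169.9 and 4060.2 (-1.86 ± 0.13). In all 3 the groups were separate by a wide gap and the treated cells stayed far above their percentiles. Of the eye field factors named above, Pax6, Six3 and Lhx2 were thus read in the treated ESC-RPCs. Rax was dim there, and Six6 lay near its percentiles.

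Other markers of retinal progenitors were dim in treated cells. Aldh1a1, an enzyme that makes retinoic acid in the dorsal retina, measured 3.57, 2.30 and 23.9 against 2819.9, 2759 and 3609 and was at least 64.7-fold lower. Hmx1, a homeobox factor of the eye and ear, measured 3.24, 2.53 and 2.41 against 2094, 2282 and 2112 (at least 46.0-fold lower), and Dapl1 measured 10.4, 20.2 and 26.5 against 5933, 7106 and 4456 (at least 122-fold lower). For these 3 genes no treated array reached its percentile. Every primary array was bright for all of them. Among the 4 members that rose, Sall1, a zinc finger factor, measured 1818, 1591 and 2288 against 50.3, 69.9 and 171 (log2 difference 4.48 ± 0.37). Sfrp2, a secreted Wnt modulator, measured 2866, 2505 and 4582 against 1612, 817 and 1142 (1.48 ± 0.27), and the growth factor gene Fgf15 measured 3331, 2868 and 3342 against 1182, 2054 and 934 (1.27 ± 0.23). Hes5, a Notch target of progenitors, measured 5259.8, 4771 and 6135 against 6303, 2002 and 8478 and did not pass the test (adjusted p = 0.737). Primary replicate 2 was the low array for Hes5, and without it Hes5 passed with the sign turned (log2 difference -0.45, limma adjusted p = 0.0182).

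Photoreceptor transcription factors were among the largest falls. Of 12 measured, 10 fell, 1 rose and 1 did not pass (median -3.88, or -3.53 with bounds). Crx, the homeobox factor that drives most photoreceptor genes, measured 12.3, 3.27 and 9.29 on treated arrays against 4614, 2953 and 5866 on primary arrays. It was dim on all 3 treated arrays and at least 91.7-fold lower (limma adjusted p = 3.95e-06). Nrl, the leucine zipper factor that directs rod fate, measured 30.4, 11.0 and 22.1 against 641, 801 and 2099.9, at least 21.8-fold lower. Primary replicate 3 was the brightest for Nrl, yet the dimmest primary array still lay far above every treated one.

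Other factors of photoreceptor precursors were reduced by very different amounts. Otx2, which activates Crx, stayed bright in treated cells at 5362, 6406 and 5313 against 13186, 14394 and 18896 (log2 difference -1.43 ± 0.14). Neurod1, a proneural factor of photoreceptor precursors, measured 1031, 1102 and 1479 against 16063, 15716 and 18762 (-3.82 ± 0.14), and Rorb, a nuclear receptor needed for rods, measured 175, 189 and 182 against 5451, 5213 and 4906 (-4.83 ± 0.11). Prdm1, which blocks bipolar fate in photoreceptor precursors, measured 90.6, 98.8 and 92.6 against 4823, 4173 and 6869 (-5.78 ± 0.18). The groups did not overlap for any of these 4, and the treated Otx2 values were the ones nearest to primary. Sall3, a zinc finger factor, was the member that rose, at 318, 274 and 144 against 13.2, 56.8 and 20.5 (3.23 ± 0.52).

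**Figure D2:**
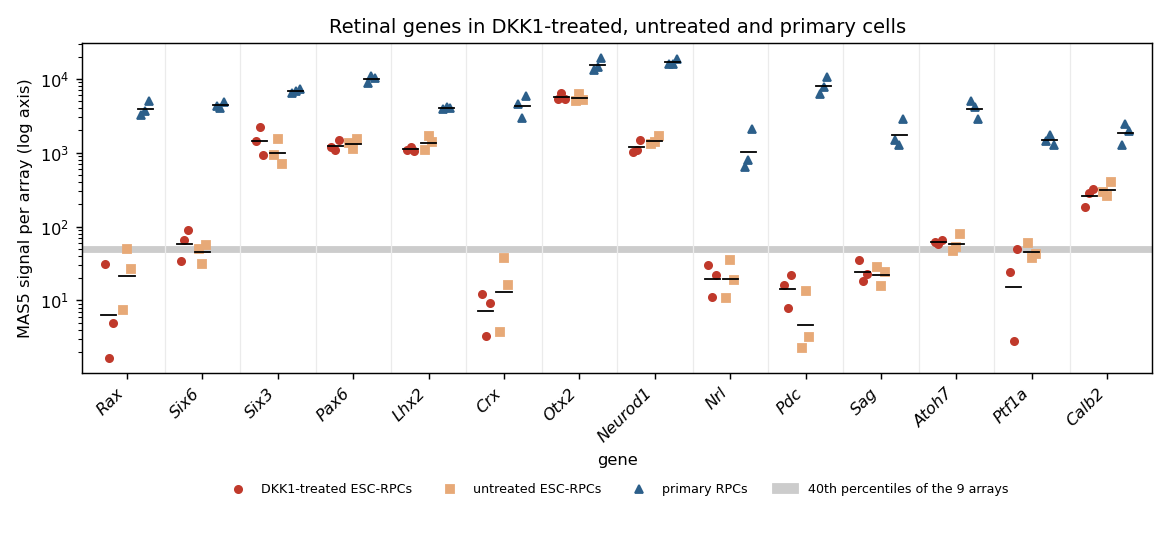
MAS5 signal on a log axis for 14 retinal genes (DKK1-treated red circles, untreated orange squares, primary blue triangles; 1 symbol per array, n = 3 per group); the black bar is the mean of the log values and the grey band spans the 40th percentiles of the 9 arrays. Crx, Nrl, Pdc, Sag and Rax lie below the band in every treated array, whereas Otx2 lies between 5313 and 6406 against 13186 to 18896 in primary arrays.

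Genes of phototransduction and the outer segment followed. Of 26 measured members of a list of 44, 21 fell, 1 rose and 4 did not pass, with a median of -4.32, or -2.75 with the 14 members that were dim in treated cells at their bounds. Without the filter, 23 of 39 fell and 1 rose (median -2.63). Pdc, phosducin, which binds the beta-gamma subunits of transducin, measured 16.1, 7.92 and 21.9 against 6245, 7772 and 10661 and was at least 171-fold lower. Sag, rod arrestin, measured 35.6, 18.1 and 23.0 against 1502, 1277 and 2841 (at least 37.5-fold lower). Both were dim on every treated array. Gnat2, the cone transducin alpha subunit, measured 42.5, 86.6 and 65.9 against 1931, 1286 and 1450.0 (log2 difference -4.62 ± 0.26), and Tulp1, which acts in photoreceptor protein transport, measured 29.3, 50.1 and 15.9 against 907, 476 and 1033 (-4.74 ± 0.53). Gnb1, a G protein beta subunit used in many cell types, was the one that rose, at 5141, 5528 and 4933 against 3973, 4074 and 3846 (0.39 ± 0.07).

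Most of the lowered phototransduction genes with a promoter window held a motif of the factor CRX. CRX binds DNA at TAATCC, and this motif was searched on both strands, where its reverse reads GGATTA, in the 300 bases from 250 before to 50 after each RefSeq start site (GRCm38.p6). Of 27025 genes with such a window, 2199 held it (8.14%). Of the 14 lowered phototransduction members with a window, 9 held it (64.3%), as did 3 of 10 lowered photoreceptor transcription factors (30%). Over all measured members with a window, the shares were 9 of 19 (47.4%) and 4 of 11 (36.4%), and among pluripotency genes 2 of 19 (10.5%). A match is a description of letters and not a tested binding site. The lists were chosen by function, so these shares describe the lists. The part of CRX in the differences was not tested. Lowered genes without the motif in a window included Pdc, Prdm1, Rorb, Tulp1, Nrl and Neurod1. The windows of Crx itself, Sag and Gnat2 are printed as examples of lowered genes with the motif within 100 bases of the start. Rbp3, Guca1a, Abca4, Gngt1, Aipl1 and Cngb1 also held it within that distance. The motif is shown in capitals, 5′ to 3′ on the gene's strand.
Crx, chr7:15879906-15880205, minus strand: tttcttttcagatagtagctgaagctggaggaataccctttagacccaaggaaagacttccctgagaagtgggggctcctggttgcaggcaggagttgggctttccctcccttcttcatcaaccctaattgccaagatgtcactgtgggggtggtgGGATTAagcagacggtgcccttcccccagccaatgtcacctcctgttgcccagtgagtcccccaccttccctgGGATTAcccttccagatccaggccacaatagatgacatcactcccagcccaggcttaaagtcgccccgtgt
Sag, chr1:87803430-87803729, plus strand: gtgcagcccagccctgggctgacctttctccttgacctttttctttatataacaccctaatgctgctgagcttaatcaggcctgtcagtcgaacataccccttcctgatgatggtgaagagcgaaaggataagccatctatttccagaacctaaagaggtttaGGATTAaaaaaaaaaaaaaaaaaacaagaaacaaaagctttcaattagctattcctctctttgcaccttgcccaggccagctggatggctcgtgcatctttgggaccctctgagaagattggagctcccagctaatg
Gnat2, chr3:108092816-108093115, plus strand: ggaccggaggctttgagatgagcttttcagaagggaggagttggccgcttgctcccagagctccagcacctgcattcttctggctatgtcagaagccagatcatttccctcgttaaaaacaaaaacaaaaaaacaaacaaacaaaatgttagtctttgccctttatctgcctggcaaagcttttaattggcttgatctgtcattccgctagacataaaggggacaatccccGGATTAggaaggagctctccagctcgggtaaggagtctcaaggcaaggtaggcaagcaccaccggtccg
The motif begins 94 and 21 bases before the start site in Crx, 87 bases before it in Sag and 19 bases before it in Gnat2, each time as GGATTA.

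Markers of early-born retinal neurons split by gene. Of 19 ganglion cell genes, 11 fell, 4 rose and 4 did not pass (median -0.79). Atoh7, which gives progenitors the competence to make ganglion cells, measured 62.5, 57.5 and 64.9 against 5029, 4085 and 2878 (log2 difference -5.98 ± 0.24, limma adjusted p = 2.43e-08). Sncg, gamma-synuclein, measured 57.9, 56.3 and 108 against 1475, 3858 and 2538 (-5.11 ± 0.44), and Pou4f1, a POU factor of sensory neurons and ganglion cells, measured 336, 271 and 242 against 1119, 1952 and 986 (-2.20 ± 0.29). The groups were separate for all 3, with Atoh7 only just above the percentile in treated cells. Among the members that rose, Tubb3, neuronal tubulin, went from 2620.4, 2544 and 2651 to 8408, 9633 and 8095 (1.74 ± 0.08), and Elavl4, a neuronal RNA-binding protein, from 1155, 1152 and 1033 to 3285, 3558 and 3228 (1.59 ± 0.08).

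Amacrine and horizontal cell genes were divided as well, with 7 of 17 lower, 5 higher and 5 not called (median -0.24, and -0.37 without primary replicate 3). Ptf1a, the factor that commits cells to these 2 fates, measured 24.3, 2.78 and 49.4 against 1449.9, 1748 and 1275, with 1 of 3 treated arrays above its percentile (log2 difference -6.63 ± 0.80). Calb2, calretinin, measured 187, 289 and 326 against 1280.3, 2424 and 1938 (-2.81 ± 0.27), and Prox1, a homeobox factor of horizontal cells, measured 311, 324 and 324 against 826, 974 and 1145 (-1.60 ± 0.13). None of these 3 overlapped between groups. Among the 5 higher members, Gad1, which makes the transmitter GABA, measured 4637, 6196 and 3821 against 452, 902 and 1242 (2.59 ± 0.32), and Lhx1, a LIM homeobox factor, measured 1682, 2165 and 1595 against 31.3, 58.6 and 49.2 (5.32 ± 0.23).

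Markers of later-born cell types fell in part. Of 10 bipolar genes, 6 fell, 1 rose and 3 did not pass (median -1.39, or -1.18 with bounds). Without the filter, 5 of 14 fell and 1 rose (median -0.25), so the size of this fall depends on the filter. Cabp5, a calcium-binding protein of bipolar cells, measured 19.1, 5.57 and 3.17 against 766, 209 and 593 (at least 9.72-fold lower), and Pcp2 measured 31.2, 16.3 and 7.67 against 212, 67.0 and 170.1 (at least 2.86-fold lower). Primary replicate 2 gave the lowest primary value for both. Of 12 Müller glia genes, 5 fell, 5 rose and 2 did not pass (median -0.20, and -0.03 without primary replicate 2). Dkk3 measured 524, 551 and 507 against 4768, 6322 and 5489 (log2 difference -3.38 ± 0.13), and Crym, which binds thyroid hormone, measured 809, 826 and 1352 against 12761, 7332 and 11427 (-3.40 ± 0.29). Among the 5 that rose, Slc1a3, a glutamate transporter, measured 2356, 2099.8 and 2265 against 1099.6, 1317 and 1002 (0.98 ± 0.11).

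Of 16 genes of synapses and vesicles, 9 fell, 2 rose and 5 did not pass (median -0.68); without DKK1-treated replicate 1 or 3, or primary replicate 1, 1 rose. Cplx3, a complexin of ribbon synapses, measured 19.8, 22.2 and 14.1 against 1525, 1037 and 2381 (at least 33.1-fold lower), and Snap25, a membrane fusion protein, measured 1554, 1699 and 1053 against 5702, 6377 and 7109 (-2.18 ± 0.18). Syn2, a vesicle phosphoprotein, rose, at 292, 301 and 212 against 82.8, 116 and 75.2 (1.56 ± 0.24). Cplx3 was dim in the treated cells, while Snap25 remained bright at a lower level.

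The proneural and Notch genes moved unevenly. Of 8 proneural genes, 5 fell, 1 rose and 2 did not pass (median -0.87). Neurog2, which starts neurogenesis, measured 1327, 1126 and 1513 against 4333, 5733 and 6551 (log2 difference -2.06 ± 0.15), and Hes6, which promotes neuronal differentiation, measured 3775, 3890.5 and 4033 against 11613, 12349.9 and 13076 (-1.66 ± 0.06). Olig1, a factor of the oligodendrocyte lineage, rose, at 2355, 1859.6 and 636 against 31.5, 85.7 and 60.1 (4.69 ± 0.56), although its partner Olig2 fell, at 701, 709.7 and 355 against 883, 1428 and 1793 (-1.23 ± 0.34). DKK1-treated replicate 3 had the lowest treated value for both Olig genes.

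Of 20 Notch receptors, ligands and targets, 4 rose, 9 fell and 7 did not pass (median -0.36, and -0.65 without primary replicate 2). Among ligands, Jag1 measured 1920.3, 1997 and 2373 against 195, 312 and 277 (3.02 ± 0.16), whereas Dll4 measured 32.2, 34.1 and 30.7 against 281, 269.5 and 296 (at least 6.01-fold lower). Among receptors, Notch3 measured 886, 868 and 1027 against 104, 179.7 and 96.3 (2.93 ± 0.21). Targets of the pathway were lower in part. Hes1 fell, at 429, 329 and 482 against 1535, 969 and 1400.2 (-1.65 ± 0.20), as did Heyl, at 108, 136 and 97.8 against 575, 570.3 and 621 (-2.38 ± 0.18). Dtx1, an E3 ligase that is also a Notch target, fell too, at 438, 543 and 367 against 1796, 1909.9 and 1713 (-2.02 ± 0.15). The targets Hey1 (-0.18), Nrarp (-0.21) and Hes5 (0.18, given above) did not pass. The ESC-RPC cultures held the gamma-secretase inhibitor DAPT and the labels name none for primary cells; its part in these values was not tested.

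Pluripotency genes rose almost without exception. Of 29 measured, 28 rose, none fell and 1 did not pass, and 25 were higher by more than 2-fold; the median was 4.75, or 3.55 with the 15 members that were dim in primary cells at their bounds. Nanog, a core factor of embryonic stem cells, measured 2525, 2103 and 2365 against 2.62, 2.72 and 1.71 and was at least 49.2-fold higher (limma adjusted p = 3.87e-10). Pou5f1, its partner, measured 2121, 1638 and 1624 against 57.3, 94.7 and 71.5 (log2 difference 4.61 ± 0.20). Every primary Nanog value was near the floor of the scale, and no treated array came near a primary one.

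The same held for other stem cell genes. Zfp42 measured 4179, 3389 and 3942 against 7.28, 1 and 1.25 (at least 80.9-fold higher), and Dppa5a, which is restricted to early embryos and germ cells, measured 10122, 10833 and 11422 against 112, 154 and 124 (log2 difference 6.39 ± 0.13). Tdgf1, a co-receptor for Nodal, measured 1106, 894 and 812 against 1, 1 and 2.34 (at least 19.7-fold higher), and Trap1a measured 1922, 1567 and 1708 against 1, 1.92 and 16.1 (at least 36.5-fold higher). The treated values of these genes differed little between the 3 arrays. The arrays do not say whether few cells carried much of this RNA or many carried a little.

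Neural progenitor genes were divided. Among 17 genes of neural progenitors in general, 8 were raised, 3 lowered and 6 not called (median 0.38). Sox1 measured 3103, 2502 and 3052 against 13.8, 43.4 and 16.0 (at least 60.8-fold higher by the probe set used). Its other kept probe set gave a smaller log2 difference of 2.41. The ESC-RPCs had been sorted on Sox1, so its level is not independent of how the cells were chosen. The POU factors Pou3f4 and Pou3f3 measured 1518, 1870.0 and 1673 against 2.79, 6.25 and 3.20 (at least 35.6-fold higher) and 5370.0, 5282 and 5241 against 159, 128 and 289.7 (4.87 ± 0.23). Sox2, shared by retinal, neural and stem cells, was bright in both groups, at 10729, 10770.4 and 11229.9 against 7641, 10461 and 7377 (0.38 ± 0.11, adjusted p = 0.0148), and its highest primary array lay just below the lowest treated one. Sox2 no longer passed without primary replicate 1 (adjusted p = 0.0571) or 3 (0.0543), and Nes, an intermediate filament of progenitors, passed only without primary replicate 2 (adjusted p = 0.0991 with all arrays, 0.00739 without it).

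Regional identity genes spanned the brain. Of 16 midbrain, hindbrain and spinal genes, 13 rose, 1 fell and 2 did not pass (median 3.33, or 1.64 with the 10 members dim in primary cells at their bounds). Without the filter, 12 of 24 rose and 2 fell (median 1.58). En2, of the midbrain-hindbrain boundary, measured 1463, 1629 and 1707 against 15.3, 37.1 and 43.1 (at least 33.8-fold higher), and Hoxb2, a hindbrain homeobox gene, measured 519, 547 and 953 against 26.8, 7.37 and 4.62 (at least 13.7-fold higher). Dbx1, of ventral interneuron progenitors, measured 2518, 2304 and 4065 against 52.3, 52.1 and 58.4 (log2 difference 5.72 ± 0.20). DKK1-treated replicate 3 was the brightest treated array for all 3 and the primary signals lay below or close to their percentiles.

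Forebrain patterning genes numbered 13, of which 10 were raised and 3 lowered (median 4.08, and 2.04 at the bounds). Otx1, of the anterior brain, measured 836, 1082 and 889.7 against 28.7, 37.1 and 29.0 (at least 19.7-fold higher), and Dlx1, of the ventral telencephalon, measured 1794, 1862 and 1292 against 90.7, 183 and 98.3 (3.79 ± 0.28). Fezf2, a zinc finger factor of the cortex, was lower, at 57.6, 117 and 88.8 against 1220.4, 2081 and 1305 (-4.14 ± 0.27). Of 13 dorsal neural tube and neural crest genes, 8 rose, 3 fell and 2 did not pass (median 0.95, or 0.49 with bounds). Pax3 measured 853, 642 and 939.7 against 1.67, 10.6 and 2.45 (at least 17.0-fold higher), and Zic4 measured 823, 713 and 629 against 65.5, 59.6 and 31.7 (3.85 ± 0.27). Outside these lists, Rfx4, a neural tube factor, measured 2702, 3131 and 3392 against 7.86, 12.3 and 6.40 (at least 64.8-fold higher). Tal1 and Tal2, bHLH factors of blood and of midbrain GABAergic neurons, measured 2202, 3313 and 2191 against 26.4, 53.1 and 35.5 (6.10 ± 0.27) and 2215, 3331 and 2472 against 29.8, 35.6 and 27.2 (at least 55.7-fold higher).

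**Figure D3:**
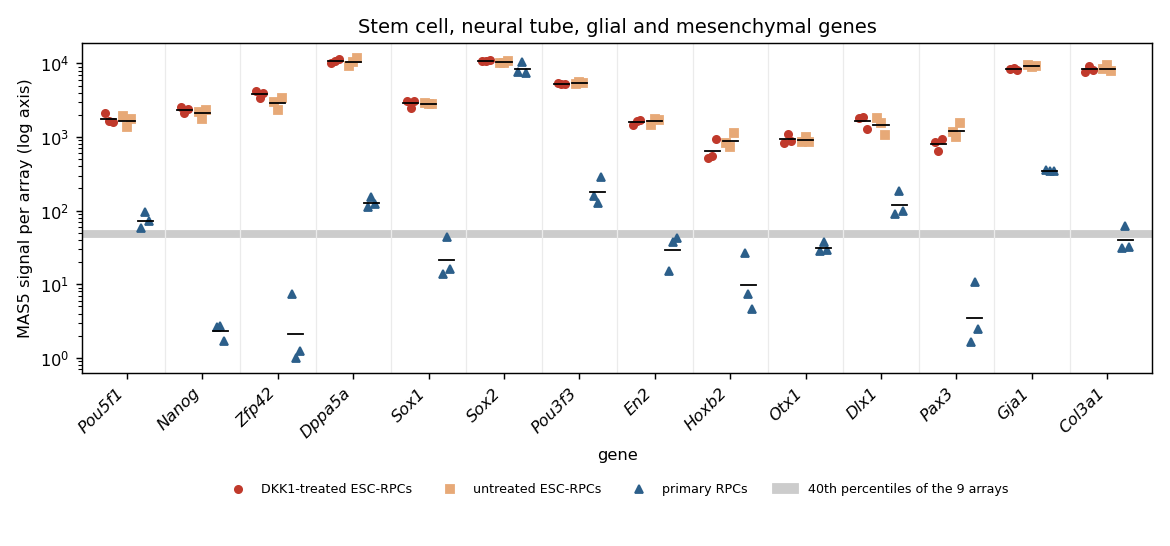
MAS5 signal on a log axis for 14 stem cell, neural tube, glial and mesenchymal genes, drawn as 1 symbol per array for the 3 groups, with the mean of the log values as a black bar and the band of 40th percentiles in grey. Sox2 is the 1 gene with similar signals in all groups; Nanog reads 2103 to 2525 in treated arrays and 1.71 to 2.72 in primary arrays.

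All 10 measured astrocyte and radial glia genes rose (median 3.42, or 2.37 with the 2 members dim in primary cells at their bounds). Gja1, connexin 43, measured 8504, 8715 and 8118 against 359.5, 343 and 341 (log2 difference 4.60 ± 0.07), and Aldoc, an aldolase of astrocytes, measured 9405, 9796 and 7570.3 against 177, 203 and 268 (5.38 ± 0.17). Aldh1l1, a folate enzyme used to mark astrocytes, measured 2123, 2347 and 1596 against 44.4, 81.8 and 42.6 (5.22 ± 0.25). The summed signal of the list was 50890.5 to 55856 on treated and 17008 to 20657 on primary arrays.

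Of 18 mesenchyme and fibroblast genes, 13 rose, 3 fell and 2 did not pass (median 2.30). Col3a1, a fibrillar collagen, measured 7707, 9275 and 8131 against 30.9, 61.2 and 32.5, with 1 of 3 primary arrays above its percentile (7.72 ± 0.22). The collagen-binding proteoglycans Dcn and Lum measured 3604, 4694 and 3668 against 47.2, 65.2 and 41.0 (6.30 ± 0.18) and 881, 1109.7 and 958 against 9.67, 10.6 and 20.6 (at least 20.7-fold higher). Tagln, a smooth muscle protein, fell, at 274, 219 and 314 against 617, 2153 and 501 (-1.72 ± 0.44, and -1.06 without primary replicate 2). The summed signal was 26635 to 30836 on treated and 6801 to 9970 on primary arrays, and its part in the other lists was not tested.

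Of 10 endoderm and mesoderm genes, 5 rose and 5 did not pass (median 1.44, or 0.71 with bounds), and 3 rose without DKK1-treated replicate 2. Without the filter, 4 of 17 rose and 2 fell (median 0.53). Foxa2, of the floor plate and endoderm, measured 461, 429.7 and 567 against 21.5, 14.2 and 17.1 (at least 10.2-fold higher), and Foxa1 measured 469, 519.6 and 611 against 39.0, 52.8 and 53.2 (3.47 ± 0.16). Large rises were also found outside the lists. Wls, which carries Wnt proteins to the cell surface, measured 2827, 3072 and 3358 against 26.4, 31.0 and 51.3 (6.47 ± 0.21), Scd1, a fatty acid desaturase, measured 9178, 8975 and 9386 against 219, 146 and 127 (5.84 ± 0.16), and the noncoding RNA Pantr1, a neighbour of Pou3f3, measured 4846, 4841 and 5278 against 23.1, 20.8 and 66.8 (7.29 ± 0.34).

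Among markers of cells that a dissected retina can hold beside progenitors, the microglia and lens lists were lower in treated cells. Of 9 microglia and macrophage genes, 6 fell and 3 did not pass (median -2.49, or -1.07 with bounds), with a summed signal of 285 to 395 against 1063 to 1817 and 5 members dim on all treated arrays. Without the filter, 8 of 14 fell and none rose (median -2.62). Ctss, a lysosomal protease, measured 5.88, 15.4 and 7.96 against 333, 383 and 687 (at least 9.46-fold lower), and C1qb measured 20.4, 16.9 and 25.1 against 188, 151 and 187 (at least 3.71-fold lower). All 7 lens genes that passed the filter fell (median -1.83), with a summed signal of 232 to 492 against 1385 to 1817 and 4 members dim on all treated arrays. Without the filter, 10 of 15 fell and none rose (median -1.69). Cryaa, alpha A crystallin, measured 2.71, 3.49 and 27.4 against 417, 338 and 317 (at least 7.56-fold lower).

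Of 10 endothelial genes, 2 rose, 2 fell and 6 did not pass (median -0.19, and 0.20 without primary replicate 2). Kdr, a VEGF receptor that retinal progenitors and neurons also make, measured 68.4, 95.4 and 104 against 5689, 5186 and 7316 (-6.09 ± 0.18). It stood apart from the other endothelial genes: Cldn5, a tight junction protein, measured 69.3, 84.5 and 71.8 against 209, 379 and 219.8 (-1.79 ± 0.25), and Emcn rose, at 257, 184 and 162 against 32.1, 70.9 and 43.1 (2.09 ± 0.33). Of 5 pigment epithelium and melanocyte genes, 2 fell, among them Dct, a melanin enzyme, at 17.3, 38.2 and 6.24 against 87.7, 147 and 124 (at least 2.49-fold lower). Of 2 erythroid genes measured both rose, and 1 did so without DKK1-treated replicate 1, 2 or 3 or primary replicate 1 or 3. What these cell types add to the retinal differences was not tested.

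Col9a1 and Gal were also among the largest falls. Col9a1, a collagen chain, measured 133, 117 and 141 against 4886, 9659 and 4404 (-5.51 ± 0.31), and Gal, the neuropeptide galanin, measured 48.9, 51.6 and 48.3 against 4019, 1889.6 and 1820.2 (-5.60 ± 0.31). Both were bright on every primary array. Of 16 immediate early genes, which answer stimulation within minutes, 13 fell, 1 rose and 2 did not pass (median -0.97). Egr1 measured 565, 499 and 375 against 6394, 5150.0 and 5849 (-3.61 ± 0.17) and Fos 370.0, 365 and 289 against 2375, 5081 and 4995 (-3.53 ± 0.28). The primary retinas had been dissociated, and how this bears on these genes was not tested.

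The sex-linked genes also differed. Xist, the RNA that silences 1 X chromosome in females, measured 62.1, 73.0 and 68.0 against 10985, 12853 and 11165 (-7.43 ± 0.19). Of 3 Y-linked genes measured, Eif2s3y at 1771, 1765 and 1633 against 981, 530.3 and 913 and Uty at 397, 365 and 373 against 217, 118 and 171 were higher in treated cells (1.14 ± 0.19 and 1.21 ± 0.19). Kdm5d was lower, at 52.4, 57.9 and 54.3 against 299, 258 and 437 (-2.56 ± 0.22). Y-linked genes were thus read on the primary arrays together with Xist.

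The series set the comparison up to look at proliferation and oncogenesis, and the genes of the cell cycle gave a mixed picture. The D cyclins Ccnd1 and Ccnd2 differed in opposite directions. Ccnd1, the main D cyclin of retinal progenitors, measured 3408, 3217 and 4509.9 against 11776, 15796 and 10004 (log2 difference -1.74 ± 0.17, limma adjusted p = 1.74e-05), while Ccnd2 measured 9487, 9332 and 11314 against 790.2, 616 and 408 (4.10 ± 0.20, adjusted p = 8.84e-08). Ccnd1 remained bright in treated cells and Ccnd2 in neither group fell to background.

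Of 18 cell cycle inhibitors, D cyclins and Rb family genes, 6 rose, 8 fell and 4 did not pass (median 0.10, and -0.0167 to 0.191 with 1 array left out). Cdkn2a, which holds the p16 and p19Arf inhibitors, rose, at 872, 869 and 1280.4 against 69.0, 104 and 112 (3.41 ± 0.21). Cdkn1a, p21, fell, at 706, 842 and 960.0 against 2731, 3203 and 2615 (-1.77 ± 0.13), as did Cdkn2c, p18, at 603, 497 and 675 against 1513, 1586 and 1924 (-1.50 ± 0.14). The inhibitors therefore moved in both directions. E2f1, a transcription factor of S phase entry, measured 349, 346 and 332 against 1148, 799.7 and 852 (-1.43 ± 0.18).

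Of 33 DNA replication genes, 11 rose, 1 fell and 21 did not pass (median 0.31). The count moved with single arrays. These genes were brightest on primary replicate 2, where their summed signal was 102658 against 70258 and 70509 on the other primary arrays and 85229 to 102619 on treated arrays. Without that array 19 rose and 1 fell (median 0.49), against 7 and 1 without primary replicate 1, and 6 and 1 (median 0.12) without primary replicate 3. Without DKK1-treated replicate 1 the counts were 6 and 0, without replicate 2 they were 11 and 0, and without replicate 3 they were 6 and 1. Orc1, a subunit of the origin recognition complex, measured 405, 289 and 478 against 99.8, 149 and 70.5 (1.91 ± 0.28). Mcm7, a helicase subunit, measured 10097, 9721 and 11051 against 8304, 11398 and 10886 (0.02 ± 0.11) and did not pass.

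Of 29 mitosis genes, 2 rose, 12 fell and 15 did not pass (median -0.32, and -0.15 without primary replicate 1). Mki67, a proliferation marker, measured 3865, 3312 and 4477 against 6787, 6292 and 5969 (-0.72 ± 0.11). Nuf2, a kinetochore protein, measured 485, 466 and 574 against 2094, 1962 and 1981 (-1.99 ± 0.13), and Ccna2, cyclin A2, measured 2885, 2436 and 3136 against 5723, 5792 and 6042 (-1.06 ± 0.09). All 3 were lower in treated cells without overlap. Ccnb2, cyclin B2, was higher, at 3193, 2717 and 3224 against 2219, 1857 and 2446 (0.49 ± 0.11).

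Of 12 oncofetal and Myc family genes, 9 rose, 1 fell and 2 did not pass (median 1.05); without primary replicate 2, 9 rose and 2 fell. Lin28a, an RNA-binding protein of early embryos, measured 759, 602 and 702 against 25.7, 8.76 and 27.5 (at least 14.5-fold higher), and Igf2bp1 measured 2845, 2291 and 3339 against 969.6, 1603 and 732 (1.42 ± 0.24). Myc measured 573, 555 and 557 against 274, 324 and 187 (1.14 ± 0.18), whereas Mycn measured 2975, 2501 and 2956 against 3162, 2796 and 3390.2 and did not pass (-0.15 ± 0.11, adjusted p = 0.257). Myb, a transcription factor of dividing progenitors, was the member that fell, at 254, 185 and 278 against 9758, 11809 and 9910.5 (-5.47 ± 0.17).

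**Figure D4:**
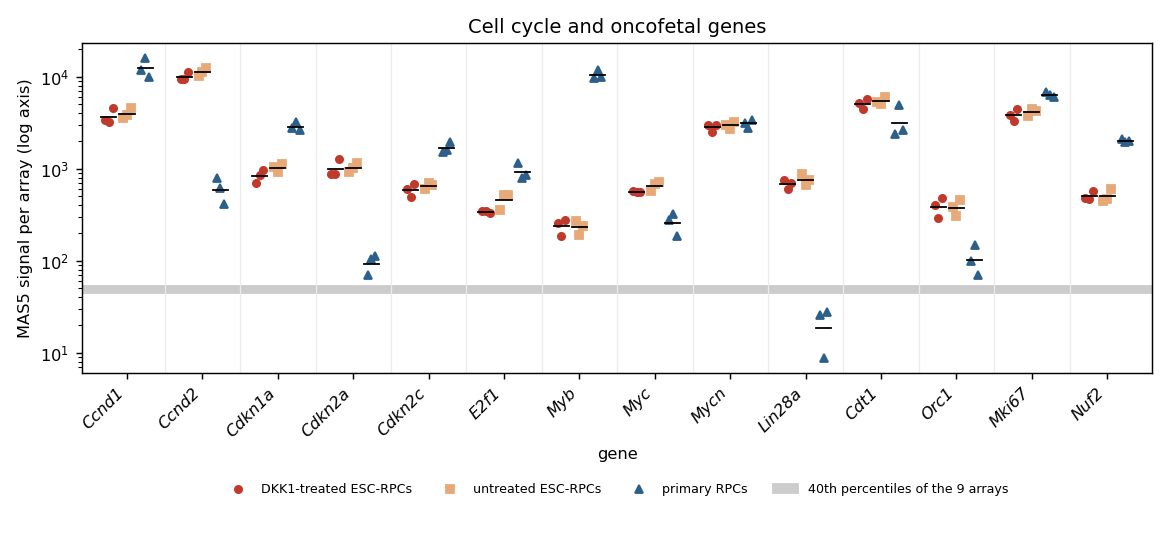
MAS5 signal on a log axis for 14 cell cycle and oncofetal genes, with 1 symbol per array, the mean of the log values as a black bar and the 40th percentiles as a grey band. Ccnd1 and Ccnd2 differ in opposite directions, Mycn overlaps between groups, and for Cdt1 1 primary array (replicate 2, 4916) lies among the treated values.

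Of 16 p53 response and Bcl2 family genes, 4 rose, 3 fell and 9 did not pass (median -0.09). Zmat3 and Ccng1, p53 targets, rose, at 1623, 1555 and 1955 against 781, 590.2 and 641 (1.35 ± 0.14) and 9445, 8516 and 11225 against 6075, 4453 and 4343 (0.98 ± 0.14), while Gadd45a, also a p53 target, fell, at 790.0, 821 and 785 against 1865, 2472 and 1463 (-1.24 ± 0.16). The direction was thus not shared by the targets named.

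Growth factor receptors and their feedback genes pointed in different directions. Of 19 receptor tyrosine kinases, 10 rose, 5 fell and 4 did not pass (median 0.83, and 0.52 without primary replicate 3); without DKK1-treated replicate 1, 9 rose and 3 fell. Of the FGF receptors Fgfr4 did not pass (-0.70) and the others rose, with Fgfr1 at 1727, 1639.8 and 1729 against 357, 419 and 323 (2.22 ± 0.11), Fgfr2 at 771, 803 and 805 against 123, 155 and 137 (2.52 ± 0.11) and Fgfr3 at 757, 908 and 989.8 against 87.6, 222 and 107 (2.79 ± 0.29). Of 14 FGF feedback genes, 4 rose, 6 fell and 4 did not pass (median -0.31). Dusp6, a phosphatase induced by FGF signalling, measured 892, 919 and 1107 against 6928, 5589 and 5910.1 (-2.66 ± 0.13), and Spry4, another feedback inhibitor, measured 128, 112 and 134 against 452, 362 and 275 (-1.51 ± 0.19). The ligand Fgf9 measured 72.7, 83.7 and 80.7 against 1304, 1723 and 1244 (-4.16 ± 0.16). The ESC-RPC medium held bFGF, and its part was not tested.

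Wnt genes were mostly higher than in newborn retina after the Wnt antagonist. Of 13 measured feedback and target genes, 10 rose, 1 fell and 2 did not pass (median 0.91). For untreated minus primary cells the median was larger, at 1.49. Tnfrsf19, a member, averaged 639 in treated, 1082 in untreated and 110 in primary cells. Axin2, which ends beta-catenin signalling by feedback, measured 582, 654 and 589 against 221, 263 and 251 (1.31 ± 0.11, limma adjusted p = 5.21e-06), and Nkd1, another feedback inhibitor, measured 483, 447 and 597 against 299.5, 361 and 251 (0.75 ± 0.15). Apcdd1, a feedback inhibitor at the membrane, measured 6908, 6800.5 and 8015 against 421, 416 and 1202 (3.60 ± 0.33). Lef1, the factor that binds beta-catenin, measured 753, 776 and 702 against 319.8, 855 and 350.3 and did not pass (0.70 ± 0.30, adjusted p = 0.0758); primary replicate 2 lay above all treated arrays, and without it Lef1 passed (adjusted p = 6.58e-05). Dkk1 itself measured 138, 101 and 145 against 16.1, 32.8 and 36.4 (at least 2.67-fold higher).

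Of 24 Wnt ligands, receptors and secreted antagonists, 16 rose, 2 fell and 6 did not pass (median 0.90). Fzd5, the Wnt receptor of retinal progenitors, was lower in treated cells, at 313, 216 and 239 against 5081, 5912 and 4507 (-4.34 ± 0.15). The ligand Wnt5a measured 1067, 1119.6 and 1249 against 143, 208 and 155 (2.78 ± 0.15), and the antagonists Sfrp1 and Frzb measured 1372, 1485 and 1711 against 139.9, 252 and 128 (3.20 ± 0.22) and 476, 399 and 594 against 28.0, 43.6 and 44.9 (3.67 ± 0.21). This ligand and these antagonists were thus higher in treated cells.

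Of 14 Nodal, BMP and Id genes, 7 rose, 3 fell and 4 did not pass (median 1.01, or 0.44 with bounds); 8 rose and 1 fell without DKK1-treated replicate 2, and 9 and 1 without primary replicate 2. Bmp4 measured 531, 451 and 461 against 60.02, 93.3 and 47.2 (2.90 ± 0.22), and Id2, a target of BMP signalling, measured 6762, 6200.4 and 8363 against 1327, 1830.4 and 1645 (2.15 ± 0.15). Of 11 hedgehog genes, 3 rose, 3 fell and 5 did not pass (median 0.20, and 0.05 to 0.30 with 1 array left out); 5 rose and 3 fell without primary replicate 2. Shh, the ligand, measured 1306, 1359 and 1853 against 191, 255 and 219 (2.76 ± 0.17), and its receptor and target Ptch1 measured 5961, 6095 and 7182 against 2894, 3343 and 3040.1 (1.05 ± 0.10). The coreceptors split, Boc rising to 830.2, 616 and 974 from 175, 135 and 125 (2.47 ± 0.19) and Cdon falling to 455, 497 and 488 from 1793, 2191 and 2196 (-2.10 ± 0.11).

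Genes of lipid and sugar metabolism were mostly higher. Of 17 cholesterol synthesis genes, 16 rose and 1 did not pass, 10 by more than 2-fold (median 1.54). Msmo1, a sterol oxidase, measured 9662, 9950.4 and 10531 against 2544, 1387 and 1160.3 (2.65 ± 0.22), and Insig1, which senses sterols, measured 4774, 5049 and 5442 against 1712, 1133 and 1198 (1.94 ± 0.13). Of 15 glycolysis genes, 9 rose, 4 fell and 2 did not pass (median 0.40, and 0.27 without primary replicate 2); 9 rose and 2 fell without DKK1-treated replicate 3. Slc2a3, a neuronal glucose transporter, measured 8785, 7949 and 8321 against 1139, 1723 and 2079 (2.38 ± 0.17), and Hk2, a hexokinase, measured 1248, 958 and 1272 against 384, 347 and 387 (1.63 ± 0.14), while Eno2, neuronal enolase, fell, at 277, 347 and 233 against 639, 519 and 667 (-1.10 ± 0.18).

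Some genes were measured as close to equal. The 95% interval of the log2 difference lay within 0.5 either side of 0, with all 6 arrays above their percentiles, for 3134 of 13331 genes (23.5%) and for 44 of the 570 list members measured. They included Smo, the hedgehog signal transducer, at 1839, 1801 and 2098 against 2003, 1685 and 1938 (log2 difference 0.03 ± 0.10), Mcm7, given above, and Rrm1, a subunit of ribonucleotide reductase, at 3334, 2960.0 and 3847 against 2877, 3830.3 and 3368 (0.01 ± 0.12). Acta2, smooth muscle actin, measured 2330.2, 1747 and 2465 against 2275, 1923 and 2206 (0.02 ± 0.13). In these genes the groups overlapped.

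The untreated ESC-RPCs, which received no DKK1, differed from the primary cells by a similar amount: limma called 7060 genes (53%) between them and primary cells, and 1222 (9.17%) by more than 2-fold, 731 higher (5.48%) and 491 lower (3.68%). Untreated minus primary list medians were -3.65 for photoreceptor transcription factors, 4.51 for pluripotency genes and 1.49 for Wnt feedback and target genes. For treated minus primary cells the same medians were -3.88, 4.75 and 0.91. Both comparisons use the same primary arrays, so they are not independent, and the difference between them is the comparison of treated with untreated cells. That comparison called 0 of 13331 genes in the limma fit of 9 arrays, with 308 at an unadjusted p under 0.05. The labels state no pairing of the 2 ESC-RPC groups, but their same-numbered arrays deviated together in these values. With the number as a block the 6 ESC-RPC arrays gave 53 calls (0.398%), 26 higher and 27 lower after DKK1. The block was chosen from the same values, so these calls are not independent of that choice. No gene was called by limma with the same block on all 9 arrays (378 at an unadjusted p under 0.05) or on the 6 ESC-RPC arrays without the block (765), so what follows rests on that 1 fit. Of the 53, the treated mean lay between untreated and primary for 22 genes, farther from primary than the untreated mean for 24, and beyond the primary mean for 7.

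Of these genes, 19 belonged to the lists, with 9 treated means between untreated and primary and 10 farther away. Means below are over 3 arrays, with ± as the SD. Six3 averaged 1534 ± 640.0 in treated, 1054 ± 435 in untreated and 6896 ± 488 in primary cells, a rise of 0.53 after DKK1 in log2 in the blocked fit (adjusted p = 0.00611), which left it 4.77-fold below primary. Nkd1 averaged 509 ± 78.6, 841 ± 7.38 and 304 ± 55.3 in the same order (blocked log2 difference -0.74), and Lef1 744 ± 37.6, 1089 ± 165 and 508 ± 300.3 (-0.54). Pax3 and the hindbrain gene Hoxb1 also fell with DKK1 and stayed far above primary, at 812 ± 153, 1241 ± 279 and 4.92 ± 4.97 and at 221 ± 90.5, 400.2 ± 46.7 and 5.65 ± 3.07. In these 5 genes the treated mean was nearer to newborn retina than the untreated mean.

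The other direction was as frequent. The stem cell genes Zfp42, Tdgf1 and Nr0b1 rose with DKK1 and stood farther above primary cells, Zfp42 at 3837 ± 406 treated, 2903 ± 515 untreated and 3.18 ± 3.55 primary (blocked log2 difference 0.41). Gad1 and Lhx1 did so too, Gad1 at 4885 ± 1207, 3682 ± 801 and 865 ± 396 (0.40). The neurogenic genes Hes6 and Neurog2 fell further below primary, Neurog2 at 1322 ± 193, 1744 ± 57.9 and 5539 ± 1122 (-0.41). For these named genes the change was small beside the distance of either ESC-RPC group from newborn retina. Dner was an exception among the 10, with a log2 change of 0.23 against an untreated distance from primary of 0.06.

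**Figure D5:**
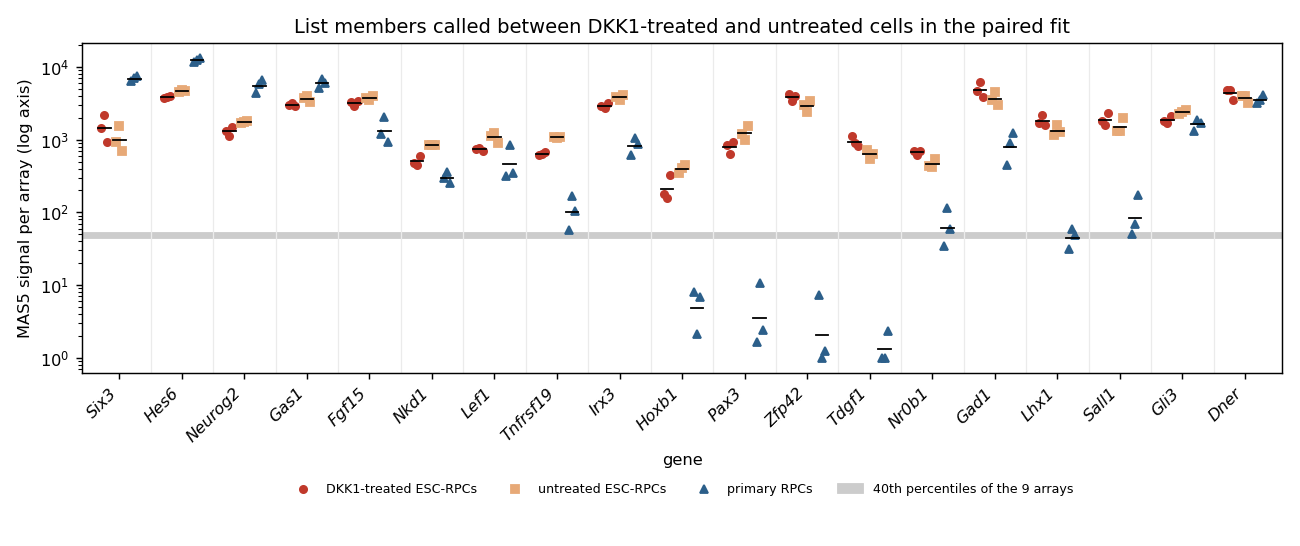
MAS5 signal on a log axis for the 19 list members called between DKK1-treated and untreated ESC-RPCs in the blocked fit of 6 arrays, with 1 symbol per array, the mean of the log values as a black bar and the 40th percentiles as a grey band. For most genes the step from orange to red is much smaller than the distance of either from the blue primary arrays; Dner, Gli3, Lef1 and Nkd1 are exceptions.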

How the data were processed

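The deposited values are linear intensity values made with MAS5, per the submitters' processing notes, 1 for each of 45101 probe sets on 9 arrays; settings and the genome build are not given in the sources used here. With the top and bottom 2% of values trimmed, the mean was 500 on every array. Of 45037 non-control probe sets, 34945 had 1 gene, 932 several and 9160 none in the platform annotation, and 34754 matched a RefSeq gene by ID. Log2 was taken with no further scaling. Probe sets above the 40th percentile of their own array on 3 or more arrays were kept (29078), and the brightest kept one stood for its gene. This choice matters for 773 of 3550 called genes with several probe sets, whose probe sets differed in sign. Probe sets of the same gene can also differ in size, and each value or bound holds for the probe set used.

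The 9 arrays were modelled together in limma 3.58.1 (R 4.3.3), with a mean for each group and eBayes with an intensity trend, with Benjamini-Hochberg adjustment over 13331 genes and a call at 0.05; limma's treat tested for more than 2-fold. The fit without a block was also run on simulated data, with independent noise and far fewer changed genes than were called here. Its outcome is not given here, and the blocked fit was not simulated. Deviations of same-numbered DKK1-treated and untreated arrays from their group means correlated at 0.126, 0.196 and 0.318, all over 0.1, which comes from the values and not from the labels; these groups were therefore also fitted with the replicate number as a block. Treated and primary arrays were not paired. Where nothing is said of the source of repeats, p-values measure the spread between arrays only.

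The comparison, gene lists and tests were chosen with earlier results of these data known, so lists are described by counts and medians and not tested. Named genes were the 8 largest rises and falls with neither group dim and the 8 largest bounds each way, up to 4 members per list in its main direction and 2 in the other, a fixed set of retinal, stem cell, Wnt and cycle genes, 10 near-equal members, and members called in the blocked fit. Alternatives covered scaling, the filter on dim probe sets, probe set choice, an added signal of 32, the arrays fitted, the trend, the block, and each array left out.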

Additional observations from a re-analysis of the deposited data

How the results depend on the processing

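Of 13331 genes, 7036 differed between DKK1-treated and primary cells. Each alternative that counted genes gave 5736 to 7309 calls, and 1008 to 1329 by more than 2-fold against 1249. The number tested changed with the filter: without it 7026 of 18193 genes were called, and with the stricter filter 6052 of 10622. The called share of 52.8% therefore depends on the filter. Counted by probe set, the calls were 13825 of 29078 kept and 13573 of 45037 without the filter, and 2232 and 2190 by more than 2-fold. With 1 array left out the calls numbered 5932 to 7309, and 1026 to 1329 by more than 2-fold. Setting arrays to one common median gave 3517 higher and 3030 lower and moved the median of all genes by 0.05.

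Same-numbered treated and primary arrays did not deviate together (correlations of -0.0129, -0.0321 and -0.0391), so the numbers do not pair them; with the replicate block the calls were 7046 on 9 arrays and 5736 on 6. Between treated and untreated cells, 0 genes passed in the limma fit of 9 arrays, 1 without the intensity trend, 53 with the replicate block on 6 arrays, 0 with it on 9 arrays and 0 on 6 arrays without it; each array left out in turn gave 0.

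Of 3708 pairs of a named gene and an alternative, 3626 kept direction and side of the threshold, 73 lost the call, 8 gained it and 1 reversed: Bub1 changed sign with the mean of its probe sets (log2 difference -0.44, limma adjusted p = 0.0252). Of 607 pairs of a list median and an alternative, 547 stayed within the SD of that median between arrays and 56 moved by more. The other 4 changed sign from a median larger than that SD, and 9 changed sign in all. The median of cell cycle inhibitors, D cyclins and Rb family genes was -0.0167 without DKK1-treated replicate 3, -0.0133 without primary replicate 3 and at most 0.191 with another array left out. Without the filter the erythroid median was -0.32 and that of sex-linked genes 1.14. The endothelial median was 0.20 without primary replicate 2. The pigment epithelium median, 0.04 with all arrays, was -0.65 with the stricter filter, -0.26 without primary replicate 1, -0.0020 without primary replicate 2 and -0.0082 without DKK1-treated replicate 3. The causes were not tested. For dim genes the signal over background sets the limit, and their folds are bounds.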
